A study of Mus musculus with 14 samples.

Results

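The adenylyl cyclase family comprises the 9 membrane-bound enzymes that make cyclic AMP (cAMP) from ATP, encoded by Adcy1 to Adcy9. The genes were found by symbol, and all 9 were among the 24444 genes of each deposited table. They are described here in the cortex of 2 mouse models of miR-29, mutant against wild type within each model. The family was selected on the values of these same comparisons, which were already known, so the values of its members in these comparisons are a description and carry no test. A member named as called below passed the threshold of a fit across all genes. That call, and whether it was kept in other fits, is part of the description. Genes outside the family carry the test of a fit across all genes, but the lists of pathway genes were also chosen with earlier results known.

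In the first model, mice floxed at both genomic clusters of the microRNA (miR-29ab1 and miR-29b2c) carried Nestin-Cre, a recombinase driven in neural progenitors, so that neurons and glia derived from them lack miR-29 while blood-derived cells and vessels largely keep it. Cortex of these miR29Nestin mice (n = 3) was compared with cortex of miR29WT mice (n = 3) at postnatal day 40, and the labels do not say whether the miR29WT mice carried floxed alleles or the Cre. In the other model, miR-29 was intact and its 5 binding sites in the 3′ untranslated region (UTR) of Dnmt3a had been changed from TGGTGCT to CACGGCT by a CRISPR/Cas9 knock-in. Cortex of these Dnmt3a-mi5 mice (n = 4) was compared with cortex of Dnmt3a-WT mice (n = 4) at 4.5 months. Dnmt3a encodes the de novo DNA methyltransferase of postnatal neurons.

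All membrane adenylyl cyclases are switched on by the stimulatory G protein alpha subunit (Gs, or its relative Golf in striatum and olfactory neurons), and they differ in what else acts on them. Adcy1, Adcy3 and Adcy8 are the calmodulin group: calcium entry through synaptic channels stimulates Adcy1 and Adcy8, which links neuronal activity to cAMP, and Adcy3 is the cyclase of olfactory and neuronal cilia. Adcy2, Adcy4 and Adcy7 are enhanced by G protein beta-gamma subunits, Adcy5 and Adcy6 are inhibited by Gi and by calcium, and Adcy9 responds poorly to forskolin. Cyclic AMP then acts on protein kinase A (PKA), on the exchange factors Rapgef3 and Rapgef4, and, through CREB, on activity-regulated genes, until phosphodiesterases remove it.

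The sequences that define both models are the mature miR-29 strands, given 5′ to 3′ from RefSeq (GRCm38.p6) with the seed, bases 2 to 8, in capitals.
mmu-miR-29a-3p: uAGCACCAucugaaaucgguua
mmu-miR-29b-3p: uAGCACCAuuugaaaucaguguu
mmu-miR-29c-3p: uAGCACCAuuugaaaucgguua
All share 1 seed, whose reverse complement is the 7-base site TGGTGCT. Of the 5 Dnmt3a sites the first and the last are shown on the plus strand from GENCODE M21 (GRCm38), with the site in capitals.
Dnmt3a site at chr12:3908561-3908589: cgacttcataaTGGTGCTttcaaaacagc
Dnmt3a site at chr12:3911463-3911491: gggtcccaagcTGGTGCTaattcctctca

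None of the 9 cyclase genes held TGGTGCT in its longest annotated 3′ UTR, read on the transcript strand, whereas 13.2% of the 20277 genes of the tables with a UTR sequence did. For Adcy1, whose 3′ UTR of 8791 bases was the longest of the family, the closer comparison is with the 286 genes whose UTRs lay within 25% of that length, and 54.2% of those held the site. The 6-base core GGTGCT, which pairs with bases 2 to 7 of the microRNA and overlaps the 7-base site, was present in 5 members (Adcy1, Adcy5, Adcy7, Adcy8 and Adcy9) and in 28.4% of all UTRs. Among UTRs of the length of Adcy1, 87.1% held that core. By the same matching on length the share was 41.2% for Adcy5, 43.9% for Adcy7, 42.1% for Adcy8 and 9.43% for Adcy9. For the members without the core it was 16.7% (Adcy2), 18.9% (Adcy3), 1.79% (Adcy4) and 46.6% (Adcy6). Adcy7 held 2 cores. The core followed by an A, which also makes a string of 7 bases, was present in 2 members, Adcy5 and Adcy7, and in 6.69% of all UTRs. The single core of Adcy1 and of Adcy8, the members called below, and that of Adcy5 are shown on the transcript strand, with the core in capitals (GENCODE M21, GRCm38).
Adcy1 at chr11:7172995-7173023, plus strand: gcaccagttacaGGTGCTtgatcacttgt
Adcy8 at chr15:64698840-64698868, minus strand: ttgatgttattgGGTGCTtagtaacttct
Adcy5 at chr16:35304024-35304052, plus strand: ccgcatggtggaGGTGCTaccggagcctt
These matches describe the letters in the window and do not show binding.

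Depth, recovered from the low values, was 11.8 to 13.06 M reads in miR29Nestin and 9.20 to 14.4 M in miR29WT. The depth of the Dnmt3a libraries is unknown. Values are normalised counts obtained by inverting the deposited log2 scale, and differences are on that log2 scale, mutant minus wild type, with their standard error (SE). The scale compresses differences of genes with low counts, so they come out smaller than the log2 ratio of the counts. Crhr1, described below, had means 1.84-fold apart in the miR29 model and a log2 difference of −0.63. Sizes are therefore not strictly comparable between genes of unlike level or between the 2 models. A gene was tested when its mean stood at least 1 above the zero level, and called at a limma adjusted p under 0.05 over all tested genes. Dnmt3a, which checks the labels, stood at 5275, 5452 and 5859 normalised counts in miR29Nestin against 1724, 1658 and 1605 in miR29WT, and at 1948 to 2249 in Dnmt3a-mi5 against 1062 to 1234 in Dnmt3a-WT. The means of 2 sets of Dnmt3a libraries were equal for every gene, so an effect with 2 levels had been removed from that table before deposit. Set 1 held libraries 1 and 2 of each group by column order and set 2 the rest. In the miR29 table, 2289 of 12014 tested genes were called (19.1%), with 10% of the tested genes lower and 9.02% higher in miR29Nestin. In the Dnmt3a table, 90 of 10097 were called (0.891%, with 0.654% lower and 0.238% higher), and with the removed effect as a term 12 were. The sets are balanced over the groups and equal in mean, so that term changes no difference and only takes 1 residual degree of freedom. The fit without the term does not count the removed effect, so its SEs and p-values for the Dnmt3a model are somewhat too small.

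Adcy1, the calcium-stimulated cyclase of cortical and hippocampal neurons, was the most abundant family member per kilobase in wild-type cortex and had the largest difference of the family without miR-29. The gene lies on chromosome 11 (7063489 to 7178506, plus strand, GRCm38). It was counted at 5973, 6669 and 6003 (normalised) in miR29Nestin and at 14631, 14632 and 16278 in miR29WT. The highest miR29Nestin library lay far below the lowest miR29WT library, and libraries of a group sat close together. The means were 6215 ± 394 in miR29Nestin and 15180 ± 950 in miR29WT (SD, n = 3 each), a 2.44-fold lower mean and a log2 difference of −1.26 (SE 0.06). Only 1 of the 12014 tested genes had a lower log2 difference. By the Y-linked genes Kdm5d and Uty, miR29Nestin held 1 male and 2 females and miR29WT 2 males and 1 female. The difference of Adcy1 was −1.34 among males and −1.19 among females.

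Excitatory neurons are a main site of Adcy1 in cortex, and their markers moved the same way to a smaller extent. The 6 excitatory markers summed to 62173 to 66122 normalised counts in miR29Nestin and 70328 to 81355 in miR29WT, and 3 of the 6 were called, all lower. Inhibitory neuron markers summed to 10215 to 11246 in miR29Nestin and 10257 to 11053 in miR29WT, but 4 of the 5 were called and in opposite directions, Pvalb (log2 difference 0.78) and Gad1 (0.23) higher and Gad2 (−0.52) and Sst (−0.48) lower. In whole cortex, fewer cells of a type and less RNA per cell cannot be told apart, and the part of excitatory cell content in the level of Adcy1 was not tested.

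In the Dnmt3a model, Adcy1 differed less and its groups overlapped. It stood at 11312, 12488, 10152 and 11810 normalised counts in Dnmt3a-mi5 and at 16144, 10200, 15017 and 12925 in Dnmt3a-WT. Dnmt3a-WT library 2 was about as low as the lowest Dnmt3a-mi5 library, and the other Dnmt3a-WT libraries were above all of Dnmt3a-mi5. The log2 difference was −0.22 (SE 0.12) and was not called. It was −0.11 in set 1 and −0.34 in set 2, with 2 libraries of each group per set. Excitatory markers summed to 56807 to 62403 in Dnmt3a-mi5 and 62759 to 66916 in Dnmt3a-WT, with none of the 6 called, and their part in the level of Adcy1 was not tested. Set side by side, the difference in the miR29 model minus that in the Dnmt3a model was −1.04 (SE 0.13). The models also differ in age, RNA kit, library kit and in the rise of Dnmt3a itself, whose mean was 3.33 times that of wild type in miR29Nestin and 1.82 times in Dnmt3a-mi5, and their parts in that gap cannot be told apart.

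**Figure D1:**
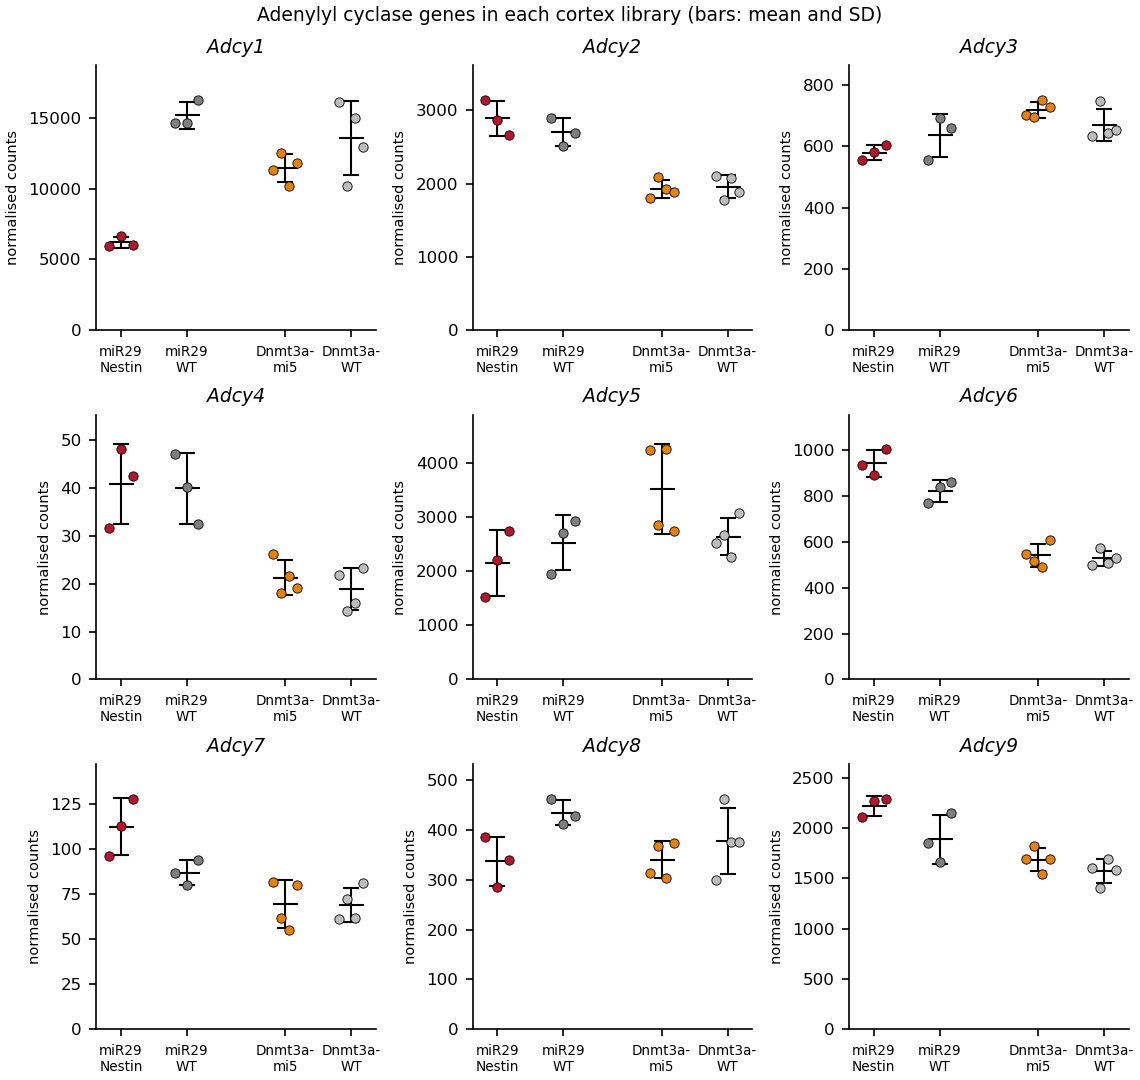
Normalised counts (vertical axis, starting at 0) of the 9 adenylyl cyclase genes in every cortex library, by group; points are libraries, and horizontal and vertical bars are the mean and SD. In the Adcy1 panel the miR29Nestin libraries sit at 5973 to 6669, below every miR29WT library (14631 to 16278), whereas the Dnmt3a-mi5 and Dnmt3a-WT libraries overlap.

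Adcy8, the other calcium-stimulated cyclase, was far less abundant and also lower without miR-29. It stood at 386, 286 and 340 normalised counts in miR29Nestin and at 462, 413 and 429 in miR29WT. The groups did not overlap, though miR29Nestin library 1 came close to miR29WT library 2. The log2 difference was −0.26 (SE 0.08). It was called, but the call was lost when any library other than miR29Nestin 1 was left out (log2 difference −0.19 to −0.29) and when sex was a covariate (−0.22). With Dnmt3a released from miR-29, Adcy8 stood at 313, 369, 304 and 375 in Dnmt3a-mi5 and at 299, 463, 376 and 376 in Dnmt3a-WT, with a log2 difference of −0.08 (SE 0.07). Those groups overlapped.

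Adcy3, the cyclase of cilia and the remaining member of the calmodulin group, was not called. Its levels were 554, 580 and 605 normalised counts in miR29Nestin and 556, 691 and 659 in miR29WT, a log2 difference of −0.10 (SE 0.07) between overlapping groups. Dnmt3a libraries gave Adcy3 levels of 695 to 752 in Dnmt3a-mi5 and 633 to 748 in Dnmt3a-WT (log2 difference 0.07, SE 0.04).

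Among the members enhanced by beta-gamma subunits, only Adcy2 is abundant in cortex. It stood at 3144, 2870 and 2664 normalised counts in miR29Nestin and at 2892, 2518 and 2695 in miR29WT. The ranges overlapped, and the log2 difference was 0.09 (SE 0.07). Adcy2 ranges in the Dnmt3a table were 1804 to 2087 in Dnmt3a-mi5 and 1774 to 2109 in Dnmt3a-WT, with a log2 difference of −0.02 (SE 0.05) whose sign changed when Dnmt3a-mi5 library 1 or Dnmt3a-WT library 1 or 3 was left out (0.0027 to 0.0104).

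Adcy7, known as a cyclase of myeloid cells, was near the lower limit of the tested range. It stood at 96.1, 113 and 128 normalised counts in miR29Nestin and at 86.6, 80.2 and 93.8 in miR29WT, so that every miR29Nestin library was above every miR29WT library, by little at the nearest (96.1 against 93.8). The log2 difference of 0.17 (SE 0.07) was not called. Microglial markers summed to 2890 to 3207 in miR29Nestin and 3016 to 3259 in miR29WT, and none of the 5 was called. In the Dnmt3a table Adcy7 was below the filter, at 55.2 to 81.8 in Dnmt3a-mi5 and 61.4 to 81.1 in Dnmt3a-WT. Adcy4 was below the filter in both tables, at 31.7 to 48.1 in miR29Nestin and 32.4 to 47.2 in miR29WT, and at 18 to 26.3 in Dnmt3a-mi5 and 14.4 to 23.3 in Dnmt3a-WT.

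Adcy5 and Adcy6, the members inhibited by calcium, behaved differently from each other. Adcy5 had the largest SE of the tested members in both tables. It stood at 1525, 2209 and 2736 normalised counts in miR29Nestin and at 1950, 2696 and 2929 in miR29WT, with a log2 difference of −0.23 (SE 0.18) between overlapping groups. Among Dnmt3a libraries it stood at 4230, 2850, 4249 and 2735 in Dnmt3a-mi5 and at 2527, 2672, 2269 and 3078 in Dnmt3a-WT. Dnmt3a-mi5 libraries 1 and 3 stood above all others, and the remaining Dnmt3a-mi5 libraries lay within the range of Dnmt3a-WT. The log2 difference was 0.35 (SE 0.14), similar in set 1 (0.37) and set 2 (0.33), and was not called.

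Adcy5 is the main cyclase of the striatum, which lies under the cortex, and the level of Adcy5 went with that of striatal genes in the same libraries. The 4 striatal markers summed here (Drd2, Rgs9, Ppp1r1b and Gng7) were all detected and none was called in either model. They summed to 5291, 7831 and 10780 normalised counts in miR29Nestin libraries 1, 2 and 3 and to 6102, 9103 and 10122 in miR29WT libraries 1, 2 and 3. The order of libraries within each group was the same as for Adcy5. Over the Dnmt3a libraries they summed to 9535, 6006, 9419 and 4889 in Dnmt3a-mi5 and to 5032, 4840, 4467 and 6766 in Dnmt3a-WT. Dnmt3a-mi5 libraries 1 and 3, the highest for Adcy5, were also the highest for these markers. The part of striatal tissue in the differences of Adcy5 was not tested. In the miR29 model the labels state no pairing. Taken as pairs by replicate number, Adcy5 was lower in the miR29Nestin library of each pair. With the replicate number as a block, Adcy5 was called lower (log2 difference −0.23). The summed striatal markers were lower in miR29Nestin in 2 of the 3 pairs.

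**Figure D2:**
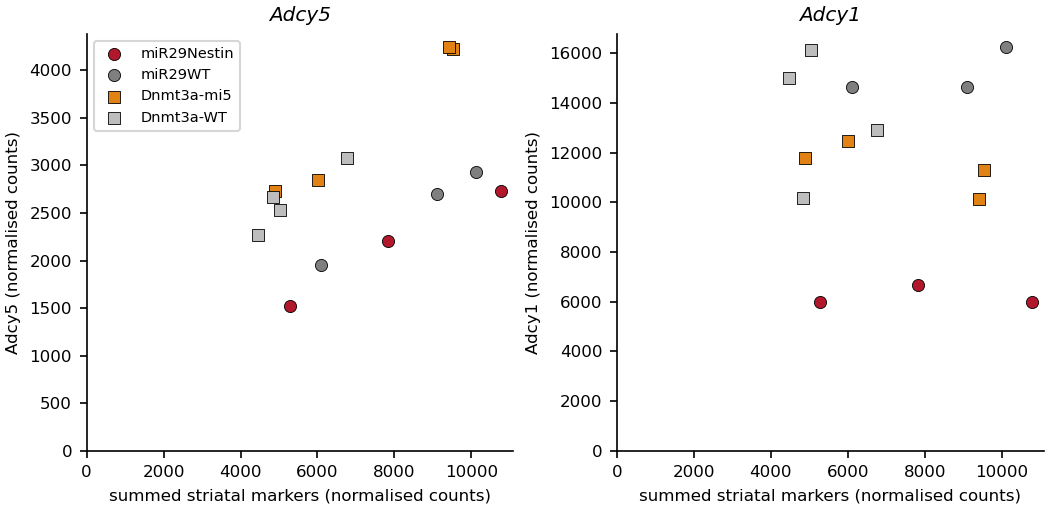
Normalised counts of Adcy5 (left) and Adcy1 (right) against the summed normalised counts of 4 striatal markers, 1 point per library, circles for the miR29 table and squares for the Dnmt3a table. Adcy5 is mostly higher where the markers are higher within each table, and the 2 Dnmt3a-mi5 libraries near 9535 and 9419 are its highest; the miR29Nestin libraries are the lowest for Adcy1 across marker sums of 5291 to 10780.

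Adcy6, a broadly expressed cyclase, stood at 933, 889 and 1003 normalised counts in miR29Nestin and at 769, 838 and 861 in miR29WT. Every miR29Nestin library was above every miR29WT library, but the log2 difference of 0.16 (SE 0.06) was not called. The Dnmt3a libraries ranged over 492 to 609 in Dnmt3a-mi5 and 499 to 574 in Dnmt3a-WT (log2 difference 0.02, SE 0.05). Adcy9, the member least responsive to forskolin, stood at 2112, 2273 and 2294 in miR29Nestin and at 1851, 1664 and 2149 in miR29WT. Only miR29WT library 3 reached into the range of miR29Nestin. Its log2 difference of 0.22 (SE 0.08) was not called with all libraries, and was called higher with the replicate block (0.22) or without miR29WT library 3 (0.31). Adcy9 in the Dnmt3a table ranged over 1543 to 1828 in Dnmt3a-mi5 and 1404 to 1693 in Dnmt3a-WT (log2 difference 0.08, SE 0.05).

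Counted over the family, 8 of 9 members passed the filter in the miR29 table, and 2 of the 8 were called, both lower, beside 19.1% of all tested genes called and 10% called lower. With the replicate block 4 were called, Adcy1, Adcy5 and Adcy8 lower and Adcy9 higher, beside 25.3% of all tested genes under the same block (11.7% higher, 13.6% lower). The groups did not overlap for 4 members, Adcy6 and Adcy7 higher and Adcy1 and Adcy8 lower, beside 37.3% of all tested genes (18.6% higher, 18.7% lower). Of the 9 members, 7 passed the filter in the Dnmt3a table. None was called by limma, beside 0.891% of all tested genes, while 1 (Adcy5) had an unadjusted p under 0.05 and no member's groups were apart, beside 12.3% (5.42% higher, 6.84% lower). Since both contrasts were known when the family was picked, nothing is read from these counts.

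**Figure D3:**
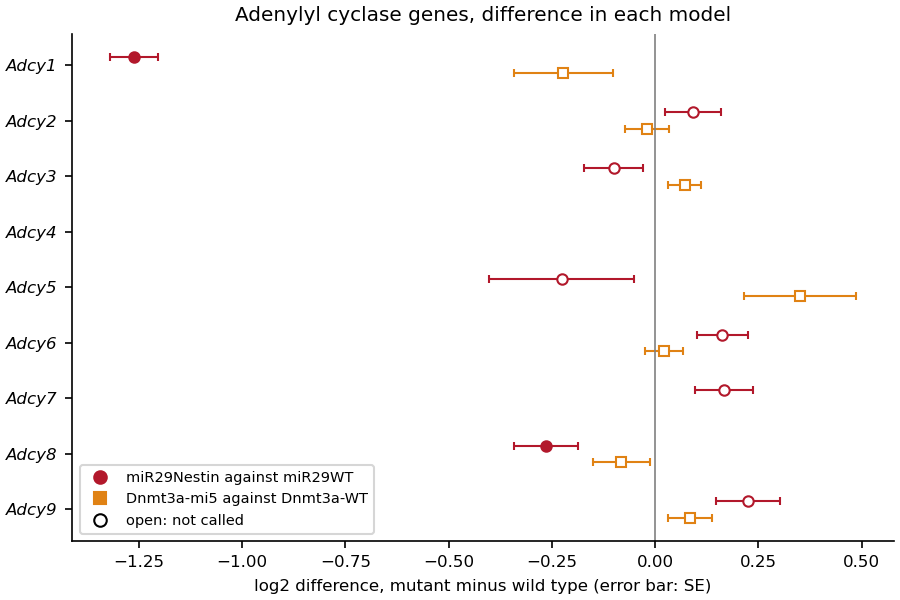
Log2 difference, mutant minus wild type, of each tested cyclase gene in the miR29 model (circles) and the Dnmt3a model (squares); error bars are the SE, and filled symbols are called. Adcy1 at −1.26 in the miR29 model stands apart from all other values, which lie between −0.26 and 0.35; Adcy4 was tested in neither table and Adcy7 only in the miR29 table.

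Levels of different members were compared per kilobase of the longest annotated transcript, as group means. In miR29WT the order was Adcy1 (1238 ± 77.5 normalised counts per kb), Adcy2 (642 ± 44.4), Adcy9 (380 ± 49.2), Adcy5 (360 ± 73.0), Adcy6, Adcy3, Adcy8, Adcy7 and Adcy4 (SD, n = 3). In miR29Nestin Adcy2 came first at 687 ± 57.2 and Adcy1 was second at 507 ± 32.1, ahead of Adcy9 at 448 ± 19.99 and Adcy5 at 308 ± 86.6 (SD, n = 3). Ranges over libraries were apart for all neighbours in miR29Nestin and for all but Adcy9 and Adcy5 in miR29WT. In Dnmt3a-mi5 the order opened with Adcy1 (933 ± 80.3), Adcy5 (502 ± 119), Adcy2 (457 ± 28.3) and Adcy9 (339 ± 23.4), and in Dnmt3a-WT with Adcy1 (1107 ± 213), Adcy2 (465 ± 37.5), Adcy5 (376 ± 48.3) and Adcy9 (316 ± 24.4; SD, n = 4 each). Adcy5 overlapped Adcy2 in Dnmt3a-mi5, and both Adcy2 and Adcy9 in Dnmt3a-WT. Below these, Adcy3, Adcy6, Adcy8, Adcy7 and Adcy4 followed in that order in both Dnmt3a groups, with ranges apart.

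Adcy1 made up 22.2% ± 1.21 of the length-scaled family total in miR29Nestin and 41.9% ± 0.0855 in miR29WT (SD, n = 3 each). The total of all 9 members was 2285 ± 66.8 per kb in miR29Nestin and 2955 ± 180 in miR29WT, while the other 8 members summed to 1778 ± 58.6 in miR29Nestin and 1717 ± 102 in miR29WT. Over single libraries the other 8 ranged over 1721 to 1838 in miR29Nestin and 1655 to 1835 in miR29WT, so the ranges overlapped for them and not for Adcy1. In the Dnmt3a model the share of Adcy1 was 37.1% ± 3.01 in Dnmt3a-mi5 and 43.3% ± 4.74 in Dnmt3a-WT (SD, n = 4 each), with totals of 2514 ± 65.6 and 2541 ± 228 per kb in the same 2 groups. The shares depend on the length used, and with no length scaling those of Adcy1 were 40.1% in miR29Nestin, 62.4% in miR29WT, 56.4% in Dnmt3a-mi5 and 63.0% in Dnmt3a-WT.

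**Figure D4:**
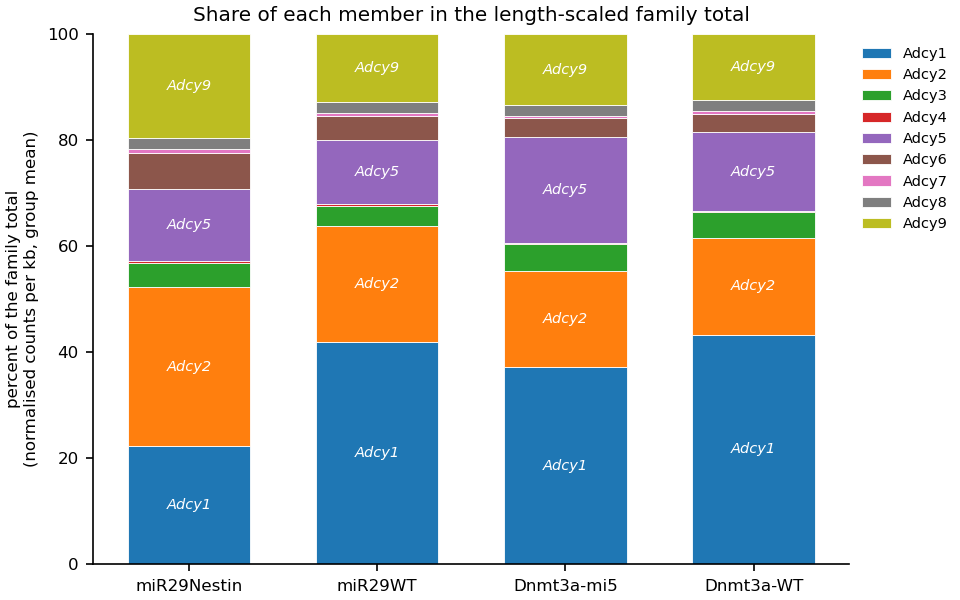
Share of each cyclase gene in the family total (percent, group mean of normalised counts per kb of the longest transcript), 1 stacked bar per group. Adcy1, at the base, takes 22.2% in miR29Nestin against 41.9% in miR29WT, and 37.1% in Dnmt3a-mi5 against 43.3% in Dnmt3a-WT.

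Genes whose pattern was most like that of Adcy1 were ranked over the 6 libraries of the miR29 table. By Pearson correlation of the deposited values, the 5 most alike were Cdk5r1 (r = 0.9985), Iqsec2 (0.9977), Satb1 (0.9975), Ntm (0.997) and Cib2 (0.9968), with log2 differences of −0.25 to −0.54. The 5 most opposed were Col26a1 (r = −0.9992, log2 difference 1.46), Mgst3 (−0.998), Pcnt (−0.9973), Hepacam (−0.9969) and Tor1aip2 (−0.9964). These libraries share the groups and the normalisation, and 875 of the tested genes (7.29%) had an r above 0.9, so a high r mostly restates a group difference.

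The genes around the cyclases in the cAMP pathway were read from 9 lists with 91 genes. In the miR29 model 79 were tested and 22 called (27.8%), 18 lower and 4 higher, beside 19.1% of all tested genes. Their median log2 difference was −0.09, beside −0.01 for all tested genes. With the replicate block 34 were called, 28 lower and 6 higher, beside 25.3% of all tested genes. The lists were chosen with earlier results of these data known. Nothing is therefore read from their counts or median, in either model.

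Among the ligands that act through Gs, 1 of 3 tested was called. Adcyap1, which encodes the peptide PACAP, stood at 142, 207 and 126 normalised counts in miR29Nestin against 368, 292 and 260 in miR29WT. No libraries overlapped, and the log2 difference was −0.58 (SE 0.11, limma adjusted p = 4.34e-03). Of the Gs-coupled receptors 9 of 16 were tested and 1 was called. Crhr1, the receptor of corticotropin-releasing hormone, stood at 334, 284 and 272 in miR29Nestin against 577, 539 and 525 in miR29WT, and fell by 0.63 on the log2 scale (SE 0.07, limma adjusted p = 1.57e-04). In the Dnmt3a model Crhr1 was below wild type in every library, at 204 to 234 in Dnmt3a-mi5 against 248 to 304 in Dnmt3a-WT, but did not pass (log2 difference −0.17, limma adjusted p = 0.0784).

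Of the G proteins and calmodulins that act on the cyclases, all 10 were tested, 3 fell and 1 rose in miR29Nestin. Calm2 and Calm3 encode calmodulin, the cofactor of Adcy1 and Adcy8, and moved apart. Calm2 averaged 19378 ± 546 in miR29Nestin and 22290 ± 655 in miR29WT (log2 difference −0.20, limma adjusted p = 6.80e-03). Calm3, named after its values were seen, averaged 25274 ± 1009 in miR29Nestin and 22967 ± 215 in miR29WT (log2 difference 0.14, limma adjusted p = 0.0393), a call lost when libraries were re-centred on the median gene (0.13, limma adjusted p = 0.0533) and without any 1 library other than miR29Nestin 3.

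The called alpha subunits were Gnaz, an inhibitory subunit of neurons, and Gnal, which encodes Golf. Gnaz averaged 582 ± 29.2 in miR29Nestin and 756 ± 38.8 in miR29WT (log2 difference −0.30, limma adjusted p = 5.37e-03). Gnal stood at 1879, 2179 and 2643 in miR29Nestin against 2889, 3572 and 3614 in miR29WT, a log2 difference of −0.56 (SE 0.11, limma adjusted p = 5.51e-03). Golf couples to Adcy5 in the striatum, and within each group Gnal followed the same order of libraries as Adcy5 and the summed striatal markers given above. Between groups it did not: every miR29Nestin library was below every miR29WT library for Gnal, whereas the groups overlapped for Adcy5 and the marker sums. In the Dnmt3a model Gnal was also highest in Dnmt3a-mi5 libraries 1 and 3, at 3657 and 3733, and did not pass (log2 difference 0.22, limma adjusted p = 0.362). The part of striatal tissue was not tested for Gnal either. Gnas, the main stimulatory subunit, did not pass: it averaged 18583 ± 1079 in miR29Nestin and 17364 ± 907 in miR29WT (SD, n = 3 each).

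Within PKA, 1 catalytic subunit gene rose and 3 regulatory subunit genes and 1 inhibitor gene fell, out of 9 tested. Prkaca, a catalytic subunit, stood at 3467, 3226 and 3138 in miR29Nestin against 2697, 2682 and 2517 in miR29WT, and rose by 0.30 on the log2 scale (SE 0.05, limma adjusted p = 3.31e-03). The regulatory subunits Prkar1b (log2 difference −0.30, limma adjusted p = 2.41e-03) and Prkar2b (−0.47, limma adjusted p = 2.96e-03) fell. Prkar2b averaged 619 ± 90.0 in miR29Nestin and 920 ± 61.1 in miR29WT (SD, n = 3 each). Named after their values were seen, the regulatory subunit Prkar2a (log2 difference −0.30, limma adjusted p = 0.0129) and the inhibitor Pkia (−0.36, limma adjusted p = 7.95e-03) also fell. The other catalytic gene Prkacb and the regulatory gene Prkar1a did not pass, with log2 differences of −0.04 and 0.11. The 5 calls were kept when libraries were re-centred on the median gene, and the Prkar2a call was lost without miR29WT library 2 or 3.

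Of the 9 PKA anchoring proteins 3 fell, Akap6 of the nuclear envelope (log2 difference −0.38, limma adjusted p = 4.94e-03), Akap13 (−0.26, limma adjusted p = 0.0170) and Akap7 (−0.28, limma adjusted p = 0.0204). The Akap13 call was lost without miR29WT library 2 or 3, and the Akap7 call without miR29WT library 1 or 2. The cAMP-activated exchange factors split. Rapgef3 (Epac1) stood at 557, 495 and 519 in miR29Nestin against 346, 284 and 392 in miR29WT, a log2 difference of 0.45 (SE 0.08, limma adjusted p = 3.27e-03). Rapgef4 (Epac2), the neuronal form, averaged 6067 ± 540 in miR29Nestin and 7328 ± 210 in miR29WT (SD, n = 3 each), a log2 difference of −0.27 (limma adjusted p = 0.0113), which was not called without miR29WT library 3. Some markers of astrocytes and of leptomeningeal fibroblasts were higher too. Astrocyte markers summed to 48451 to 52675 in miR29Nestin and 43220 to 44863 in miR29WT, a sum made up mostly of Slc1a2, and Slc1a2, Gfap and Gja1 of the 5 were called higher. Aqp4 overlapped between groups, and Aldh1l1 lay lower, at 569 to 684 in miR29Nestin against 691 to 763 in miR29WT, without being called (log2 difference −0.20). Leptomeningeal markers summed to 545 to 751 in miR29Nestin and 337 to 542 in miR29WT, with 3 of 5 called higher. Those were the collagen genes Col1a1 (log2 difference 0.33) and Col1a2 (0.32), and Islr (0.47). Slc6a13 (0.15) and Dcn (−0.07) overlapped between groups and were not called. Of the oligodendrocyte markers 2 of 5 were called higher, and of the precursor markers 1 of 3. None of the 5 endothelial markers was called. The part of these cell types in the rise of Rapgef3 was not tested.

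Of the 14 phosphodiesterase genes tested, which encode the enzymes that break down cAMP, 2 fell. Pde2a averaged 5710 ± 246 in miR29Nestin and 6900 ± 564 in miR29WT (log2 difference −0.26, limma adjusted p = 0.0130), and Pde4d averaged 1035 ± 32.2 in miR29Nestin and 1197 ± 66.0 in miR29WT (log2 difference −0.18, limma adjusted p = 0.0446; SD, n = 3 each). The Pde4d call was lost without the filter on low values and without any 1 library other than miR29WT 1, and the Pde2a call without miR29Nestin library 2 or miR29WT library 2 or 3.

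None of the 8 genes of the CREB family and its coactivators passed by limma in the miR29 model, and 1 had an unadjusted p under 0.05. Of 15 CREB target genes 3 fell and 1 rose. Scg2, a secretogranin of dense-core vesicles, averaged 2322 ± 306 in miR29Nestin and 3142 ± 242 in miR29WT (log2 difference −0.41, limma adjusted p = 6.80e-03). Per1, a clock gene, averaged 1803 ± 35.4 in miR29Nestin and 1337 ± 255 in miR29WT (log2 difference 0.40, limma adjusted p = 0.0148; SD, n = 3 each). The immediate-early gene Egr1 stood at 3553, 3169 and 2653 in miR29Nestin against 4091, 5422 and 3694 in miR29WT (log2 difference −0.46, limma adjusted p = 0.0277), and Nr4a3, named after its values were seen, had a log2 difference of −0.70 (limma adjusted p = 0.0292). The calls of Egr1 and Nr4a3 were both lost with a robust variance prior, and Nr4a3 held only without miR29WT library 1 among the fits with a library left out. Egr1 was lost without miR29Nestin library 2 or 3 or miR29WT library 2, and Per1 without miR29Nestin library 2 or miR29WT library 3. Fos, the most used marker of neuronal activity, had overlapping groups at 264, 234 and 193 in miR29Nestin and 356, 470 and 190 in miR29WT, and did not pass.

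In the Dnmt3a model 2 of 75 tested pathway genes were called (0.891% of all tested genes were), both immediate-early CREB targets and both lower. Fos stood at 355, 321, 374 and 315 in Dnmt3a-mi5 against 612, 481, 518 and 554 in Dnmt3a-WT. The groups did not overlap, and the log2 difference was −0.39 (SE 0.05, limma adjusted p = 0.0115). Dusp1, a phosphatase of MAP kinases, stood at 377, 347, 363 and 322 in Dnmt3a-mi5 against 584, 451, 492 and 591 in Dnmt3a-WT (log2 difference −0.35, SE 0.05, limma adjusted p = 0.0351). Without Dnmt3a-WT library 3 or 4 neither was called, and without Dnmt3a-WT library 2 the count was 5. The Dusp1 call was also lost without Dnmt3a-WT library 1 or any 1 Dnmt3a-mi5 library, and with the removed effect as a term. Markers of other cell types were called in the same comparison, the microglial Cx3cr1 (log2 difference −0.24) and P2ry12 (−0.30) and the astrocytic Slc1a2 (−0.25) lower and the endothelial Flt1 (0.25) higher. The 5 microglial markers summed to 2345 to 2678 in Dnmt3a-mi5 and 2717 to 2860 in Dnmt3a-WT, the 5 astrocyte markers to 46418 to 48296 in Dnmt3a-mi5 and 53087 to 57781 in Dnmt3a-WT, and the 5 endothelial markers to 875 to 1097 in Dnmt3a-mi5 and 740 to 917 in Dnmt3a-WT. The astrocyte sum was made up mostly of Slc1a2. The other microglial markers, Csf1r (log2 difference −0.06), Tmem119 (−0.0012) and C1qa (0.01), were not called. Nor were the astrocytic Aldh1l1 (0.02), Gfap (0.06), Gja1 (−0.09) and Aqp4 (−0.22). Of the endothelial markers, Cldn5 (0.03), Pecam1 (0.07) and Slco1a4 (−0.05) were not called, and Tie1 was below the filter. The part of these cell types in the levels of Fos and Dusp1 was not tested. No gene of the other 8 lists was called, Adcyap1 and Prkaca among them.

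**Figure D5:**
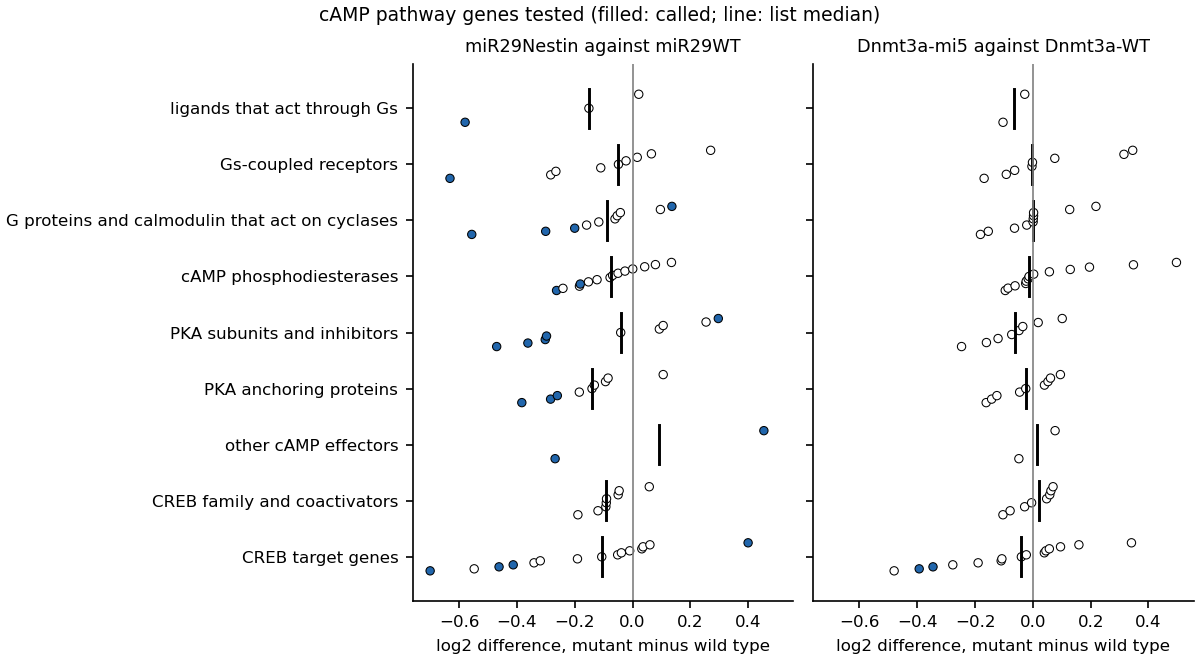
Log2 difference, mutant minus wild type, of each tested cAMP pathway gene by list in the miR29 model (left) and the Dnmt3a model (right); filled points were called, and vertical lines are list medians. On the left 18 filled points lie below 0 and 4 above it, spread over all lists except the CREB family; on the right the 2 filled points are Fos and Dusp1.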

How the data were processed

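Polyadenylated RNA of mouse cortex was sequenced as stranded paired-end libraries, 1 mouse each, per the labels' protocols and design text. Per the submitters' processing notes, the tools were STAR, Salmon, cutadapt and DESeq2 (no versions given), and the notes list mm9 and hg19 with no role. The authors deposited 1 table per model on a log2 scale, made by the variance-stabilising transformation of DESeq2 as the names of the deposited files say. Columns of the Dnmt3a table repeat their names, so they map to groups only and are numbered by column order.

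That scale was turned back to normalised counts with the value that genes without reads take, log2 6.5861 for the miR29 table and log2 7.6295 for the Dnmt3a table. For the miR29 libraries 84.5 to 88.2% of low values then fell within 0.05 of a whole read, which gave the depths. In the Dnmt3a table the means of 2 sets of libraries agreed within 5.5e-09 for every gene, so an additive effect had been removed that the notes do not mention, and its recovered counts are approximate. Each table was fitted alone with limma 3.58.1 in R 4.3.3 (linear model, empirical Bayes with a mean-variance trend, Benjamini-Hochberg adjustment over all tested genes), checked on simulated data. The filter corresponds to about 48.0 normalised counts in the miR29 table and 99.0 in the Dnmt3a table. Deviations of same-numbered miR29 libraries from their group means correlated at 0.335, 0.204 and 0.186 for numbers 1, 2 and 3. Differently numbered libraries were not compared in this way and the labels state no pairing. Whether the numbers pair the libraries is therefore unknown, and the replicate block is an alternative fit only. Blocked values are given where they change the call of a cyclase or of a named pathway gene called without the block.

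Lengths, UTRs and positions are those of GENCODE M21 on GRCm38, in which 23793 of 24444 symbols were found. Named genes are all 9 cyclases, Dnmt3a, up to 3 called genes with the smallest p per pathway list and comparison, and the 5 genes most like and most opposed to Adcy1. Others are marked as chosen after their values were seen. Of the genes first listed, 2 are not reported here and enter no list count or sum. The members, lists and tests were chosen with earlier results of these data known.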

Additional observations from a re-analysis of the deposited data

How the results depend on the processing

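In the miR29 model the log2 difference of Adcy1 was −1.31 to −1.21 with 1 library left out, a description, since the family was chosen on this comparison. Over the miR29 comparison the number of called genes was 1384 to 2313 with 1 library left out. It fell below 2289 by over 1.5 times without miR29Nestin library 2 (1474), miR29WT library 2 (1384) or miR29WT library 3 (1419). Called cyclases numbered 1 to 2 with a library left out, 1 with sex as a covariate and 4 with the replicate block. Called pathway genes numbered 15 to 23 with a library left out and 34 with the block, which took all genes called to 3037. Apart from the calls gained by Adcy5 and Adcy9, the block changed no call among the cyclases, Dnmt3a and the named pathway genes called without it. Named pathway genes not called without the block were not followed under it. In the Dnmt3a comparison 25 genes were called without the filter on low values, 12 with the removed effect as a term, and 4 to 181 with 1 library left out, the highest without Dnmt3a-WT library 2 and the lowest without Dnmt3a-WT library 3. Called pathway genes there numbered 1 with the stricter filter, 1 with the removed effect as a term and 0 to 5 with a library left out. No cyclase was called there under any alternative. The term for the removed effect left every difference as it was and only took 1 residual degree of freedom. The causes of the other changes were not tested, beyond fewer libraries or other genes entering the fit.

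Signs turned only for values near 0 in the Dnmt3a model: with 1 library left out, Adcy6 ranged over −0.0162 to 0.0497 (negative without Dnmt3a-mi5 library 4) and Adcy2 over −0.0596 to 0.0104 (positive without Dnmt3a-mi5 library 1 or Dnmt3a-WT library 1 or 3). The share of Adcy1 in the family total was 40.1% in miR29Nestin, 62.44% in miR29WT, 56.42% in Dnmt3a-mi5 and 62.98% in Dnmt3a-WT with no length scaling, and 24.04% in miR29Nestin and 43.94% in miR29WT with mean transcript length. With 1 library left out it was 21.55 to 22.76% in miR29Nestin, 41.86 to 41.94% in miR29WT, 36.25 to 38.33% in Dnmt3a-mi5 and 41.74 to 45.22% in Dnmt3a-WT. No paired analysis was possible for the Dnmt3a table because its columns carry no usable replicate numbers. Adcy4 in both tables and Adcy7 in the Dnmt3a table were too low to test, and the depth of the Dnmt3a table is unknown.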

Other observations

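Other striatum-rich genes of the cAMP pathway, picked after their values were seen, were spread over libraries like Adcy5. Pde10a, the phosphodiesterase of striatal projection neurons, averaged 2909 normalised counts in Dnmt3a-mi5 and 1934 in Dnmt3a-WT (log2 difference 0.50, limma adjusted p = 0.218). Drd1, the D1 dopamine receptor, averaged 443 in Dnmt3a-mi5 and 280 in Dnmt3a-WT (log2 difference 0.35, limma adjusted p = 0.189). In the miR29 model Pde10a averaged 2059 ± 926 in miR29Nestin and 2192 ± 703 in miR29WT (SD, n = 3 each). None of these passed.

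Among the immediate-early genes of the CREB target list, also picked after their values were seen, Junb and Nr4a1 had every Dnmt3a-mi5 library below every Dnmt3a-WT library without passing (log2 differences −0.28 and −0.48, limma adjusted p = 0.0631 and 0.0787). Of all tested genes 6.84% had groups apart and lower, and 5.42% apart and higher. For Egr1, Nr4a2, Nr4a3, Fosb and Gadd45b of the same list the groups overlapped (log2 differences −0.19, −0.02, −0.04, 0.04 and 0.05). Other genes of the list, also picked after their values were seen, included some that were higher. Vgf had every Dnmt3a-mi5 library above every Dnmt3a-WT library without passing (0.10, limma adjusted p = 0.165). Per1 was higher with overlapping groups (0.16, limma adjusted p = 0.0767). Bdnf, Sik1, Scg2 and Penk overlapped (−0.11, −0.11, 0.06 and 0.34).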
